A study of Mus musculus with 4 samples.

Results

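The 9 genes described here are targets of the transcription factor p53 whose products promote apoptosis: Bax, Bbc3, Pmaip1, Fas, Tnfrsf10b, Aen, Pidd1, Apaf1 and Ei24. They were taken by symbol from a table of 32230 genes, and each of the 9 was found. Mouse embryonic fibroblasts of the 4F2A line, taken per the labels from male homozygous mid-gestation embryos, switch on Oct4, Sox2, Klf4 and Myc, the factors of reprogramming, when doxycycline is given. Cells of both groups were grown with doxycycline at 2 µg/mL for 48 h, so the controls were reprogramming as well. The DMSO group received the vehicle and the CX-5461 group received CX-5461, each for 1 h on day 0, and polyadenylated RNA was sequenced on day 2. There were 2 libraries per group, which carry the numbers 2 and 3. The labels call these parallel replicates without saying that the cultures were separate, so p-values measure the spread between these libraries, which may be technical.

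CX-5461 blocks transcription of ribosomal RNA by RNA polymerase I and has also been described as a stabilizer of G-quadruplex DNA. When ribosomal RNA synthesis stops, free ribosomal proteins bind the ubiquitin ligase encoded by Mdm2, and p53 protein accumulates. p53 then raises transcription of genes that arrest the cell cycle and of genes that prepare cell death. The death genes act by separate routes. Receptors at the cell surface (Fas, Tnfrsf10b) recruit Fadd and Casp8, BH3-only proteins (Bbc3, Pmaip1) free Bax to permeabilize mitochondria, and Apaf1 joins cytochrome c to activate Casp9. p53 is known in fibroblasts as a barrier to reprogramming.

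Values are TPM, transcript numbers scaled to a fixed total per library and already divided by gene length, so levels can be compared between genes. TPM summed to 1000000 in each library, and read numbers recovered from the values totalled 34960052 to 37280423 per library over the 29565 genes with a single annotated exon length. The size of 1 read was inferred from the steps in the values and could stand for a single mate of a read pair, so read numbers are comparable between libraries but not certain in absolute terms. The mitochondrially encoded share was 15.3% in DMSO replicate 3 and 9.20% to 9.96% in the other libraries. Of 10 fibroblast markers all were tested, 5 fell and 0 rose (limma adjusted p under 0.05). Over all genes tested, 8.21% fell and 11.6% rose. By limma's unadjusted p under 0.05, 8 fibroblast markers were lower and 1 higher. Their summed levels were 12335 and 10073 TPM in the DMSO libraries and 8997 and 8725 TPM in the CX-5461 libraries. Of 10 macrophage and leukocyte markers, 3 of 8 tested rose (Lyz2, Cd14 and Adgre1) and summed levels were 625 and 613 TPM with DMSO and 895 and 999 TPM with CX-5461. Most of these sums was Lyz2, at 528 and 508 TPM with DMSO and at 775 and 855 TPM with CX-5461. The leukocyte gene Ptprc lay at 0.656 to 1.27 TPM. Of 11 keratinocyte markers, 2 of 6 tested rose (Krt17 and Sfn) and summed levels were 84.0 and 87.1 TPM with DMSO and 96.8 and 103 TPM with CX-5461. Sfn alone made up 51.1 and 53.3 TPM of these sums with DMSO and 74.8 and 69.3 TPM with CX-5461. At an unadjusted p under 0.05, 3 keratinocyte markers were higher and 1 lower, the keratin Krt14, at 26.4 and 26.9 TPM with DMSO and at 10.8 and 18.5 TPM with CX-5461 (difference -0.87, limma adjusted p = 0.0641). Of 7 endothelial markers 3 were tested, 1 rose (Kdr) and 1 fell (Tek), while Pecam1 and Cdh5 stayed below 1 TPM. Of 5 skeletal muscle markers 2 were tested, 1 rose (Des) and 1 fell (Acta1), with Myod1 and Myog at 0 throughout. None of 5 erythroid markers reached a mean of 1 TPM, and 3 of 6 neural and glial markers did, of which 0 rose and 0 fell by limma and 1 was higher and 1 lower at an unadjusted p under 0.05. The part of these markers in the results below was not tested, and in bulk RNA a change in the number of cells of a type cannot be told apart from a change in RNA per cell.

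Of the 9 apoptosis targets, 8 rose with CX-5461 and 0 fell (limma adjusted p under 0.05), where 11.6% of all 14621 genes tested rose and 8.21% fell, 19.8% together. At an unadjusted p under 0.05, 9 were higher and 0 lower, against 3123 higher and 2113 lower of all 14621 genes tested. Each of the 9 had higher TPM in both CX-5461 libraries than in either DMSO library, which held for 38.2% of all genes tested, the opposite holding for 26.3%. Taken as CX-5461 minus DMSO in log2(TPM + 1), their median difference was 0.75, against 0.07 over all genes tested. All 9 passed the filter of a mean of 1 TPM by a wide margin, the lowest value of any member in any library being 21.6 TPM. Fas and Pmaip1 had the 2 largest differences of the 9 and Aen and Bax the smallest. With either CX-5461 library left out, 3 of the 9 passed, namely Fas, Pmaip1 and Pidd1, and 9 passed without DMSO replicate 2.

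**Figure D1:**
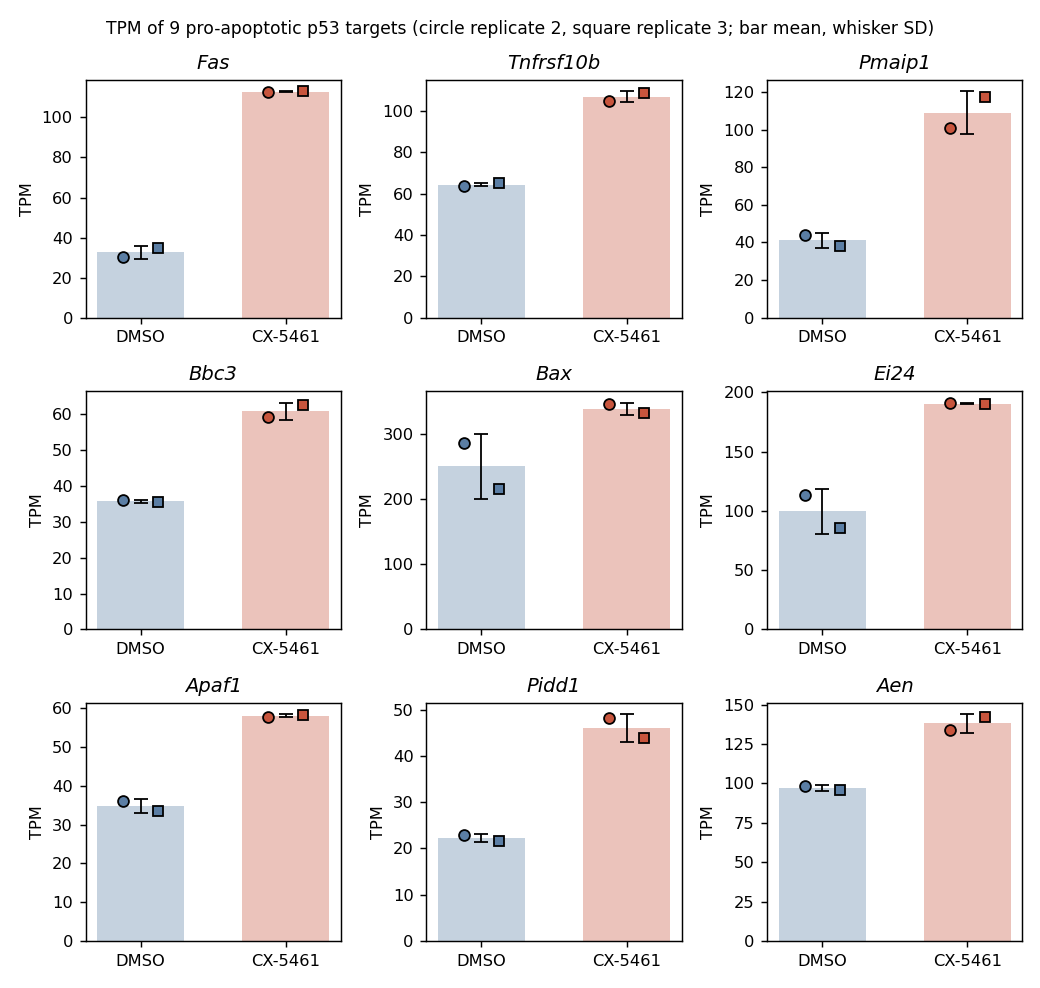
TPM (vertical axes, starting at 0 and scaled per gene) of the 9 genes in the DMSO and CX-5461 groups; circles are replicate 2, squares replicate 3, bars the mean and whiskers the SD of n = 2 libraries. In each panel both CX-5461 points lie above both DMSO points, with the closest approach for Bax, at 286 TPM in DMSO replicate 2 and 333 TPM in CX-5461 replicate 3.

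Of the surface receptors, Fas had the largest difference of the 9 genes. Fas encodes the receptor of Fas ligand, whose death domain recruits Fadd (chromosome 19, 34290666 to 34327772, mm10). Its level was 30.3 and 34.9 TPM in the DMSO libraries and 113 TPM in both CX-5461 libraries. These values rest on 643 and 832 reads with DMSO and on 2382 and 2349 reads with CX-5461. The mean rose 3.46-fold, from 32.6 ± 3.22 to 113 ± 0.320 TPM (SD, n = 2), a log2(TPM + 1) difference of 1.76 (SE 0.0994, limma adjusted p = 0.000569). By size of difference Fas ranked 90 among the 14621 genes, and it passed whichever library was left out, at 1.66 to 1.86.

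Tnfrsf10b, the mouse receptor of TRAIL (chromosome 14, 69767472 to 69784411), stood at 64.0 and 65.0 TPM with DMSO, about as high in both libraries. With CX-5461 it stood at 105 and 109 TPM, a 1.66-fold rise of the mean (log2 difference 0.72, SE 0.0806, adjusted p = 0.00394). Fas was below Tnfrsf10b in both DMSO libraries and above it in both CX-5461 libraries, so the order of the receptors turned over between the groups. Without CX-5461 replicate 2 or 3 the difference of Tnfrsf10b was 0.75 or 0.70 and did not pass (adjusted p = 0.0563 and 0.0725). The ligands of these receptors, Fasl and Tnfsf10, were listed at 0 in all 4 libraries.

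Both BH3-only genes rose. Pmaip1, which encodes Noxa, an antagonist of the survival protein Mcl1 (chromosome 18), had 44.0 and 38.1 TPM with DMSO. It had 101 and 117 TPM with CX-5461, from 2829 and 3225 reads against 1237 and 1203. Both CX-5461 libraries were thus well above both DMSO libraries. The mean rose 2.65-fold, from 41.1 ± 4.22 to 109 ± 11.5 TPM (log2 difference 1.39, SE 0.118, adjusted p = 0.0018), and the call held with any 1 library left out (1.28 to 1.49). Bbc3 encodes Puma, which binds all the main survival proteins of the Bcl2 family (chromosome 7, 16308393 to 16318205). Its TPM was 36.0 and 35.5 with DMSO and 59.2 and 62.6 with CX-5461, with little spread in either pair. The rise was 1.70-fold (log2 difference 0.75, SE 0.0864, adjusted p = 0.00427), and without CX-5461 replicate 2 or 3 it did not pass (adjusted p = 0.0516 and 0.07). Pmaip1 was above Bbc3 in both groups, by 41.1 to 35.8 TPM with DMSO and by 109 to 60.9 TPM with CX-5461.

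Bax, the effector that forms pores in the outer mitochondrial membrane (chromosome 7, 45461697 to 45466898), had the highest level of the 9 genes in each library and the smallest difference. It stood at 286 and 216 TPM with DMSO and at 346 and 333 TPM with CX-5461. The DMSO libraries lay further apart from each other than the CX-5461 libraries did, and DMSO replicate 3 was the low one. The difference of 0.45 (95% interval 0.0908 to 0.807) did not pass (adjusted p = 0.0835), although the groups did not overlap. It was 0.65 and passed without DMSO replicate 2 (adjusted p = 0.0134), and was 0.24 without DMSO replicate 3 without passing (adjusted p = 0.0823). With the replicate number as a block the same difference passed (adjusted p = 0.0452). A 192-base stretch of Bax exons, 12.2% of their length, also belongs to the annotated gene Gm45808 on the same strand. No values were given for Gm45808, and how reads there were assigned is not given in the sources used here.

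Ei24, a protein of the endoplasmic reticulum tied to growth suppression and autophagy (chromosome 9, 36779159 to 36797393), was at 113 and 85.9 TPM with DMSO. With CX-5461 it was at 191 and 190 TPM. As for Bax, DMSO replicate 3 was the lower of its pair, yet the distance between the groups was larger. The mean rose 1.92-fold (log2 difference 0.94, SE 0.140, adjusted p = 0.00915), and the difference ranged over 0.75 to 1.14 with 1 library left out. It did not pass without CX-5461 replicate 2 or 3 (adjusted p = 0.0838 and 0.0959). The antisense gene Gm26787 shares 324 bases, 6.66% of the exon length of Ei24, and stood at 53.6 and 65.2 TPM with DMSO and at 93.5 and 77.1 TPM with CX-5461. The strand setting of the authors' counting is not given in the sources used here, so reads of the pair cannot be told apart there.

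The caspase-activating scaffolds rose as well. Apaf1, the scaffold of the apoptosome (chromosome 10, 90989311 to 91082770), had 36.2 and 33.6 TPM with DMSO and 57.8 and 58.4 TPM with CX-5461. The rise was 1.67-fold (log2 difference 0.72, SE 0.0890, adjusted p = 0.00527), and it did not pass without CX-5461 replicate 2 or 3 (adjusted p = 0.0666 and 0.0777). Pidd1 encodes a death domain protein that, through the adaptor Cradd, activates Casp2 in the PIDDosome (chromosome 7, 141438113 to 141444025). It had the lowest level of the 9 genes in each library, at 22.9 and 21.6 TPM with DMSO and 48.2 and 44.0 TPM with CX-5461. Its rise of 2.07-fold (log2 difference 1.02, SE 0.0981, adjusted p = 0.00253) came after those of Fas and Pmaip1 in size and held with any 1 library left out (0.95 to 1.08). Aen, a nuclease that enhances DNA degradation in apoptosis (chromosome 7, 78895854 to 78911209), was at 98.2 and 95.8 TPM with DMSO and at 134 and 142 TPM with CX-5461. The increase of 1.42-fold was the smallest that passed (log2 difference 0.50, SE 0.0822, adjusted p = 0.0123). Without CX-5461 replicate 2 or 3 it did not pass (adjusted p = 0.101 and 0.158).

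**Figure D2:**
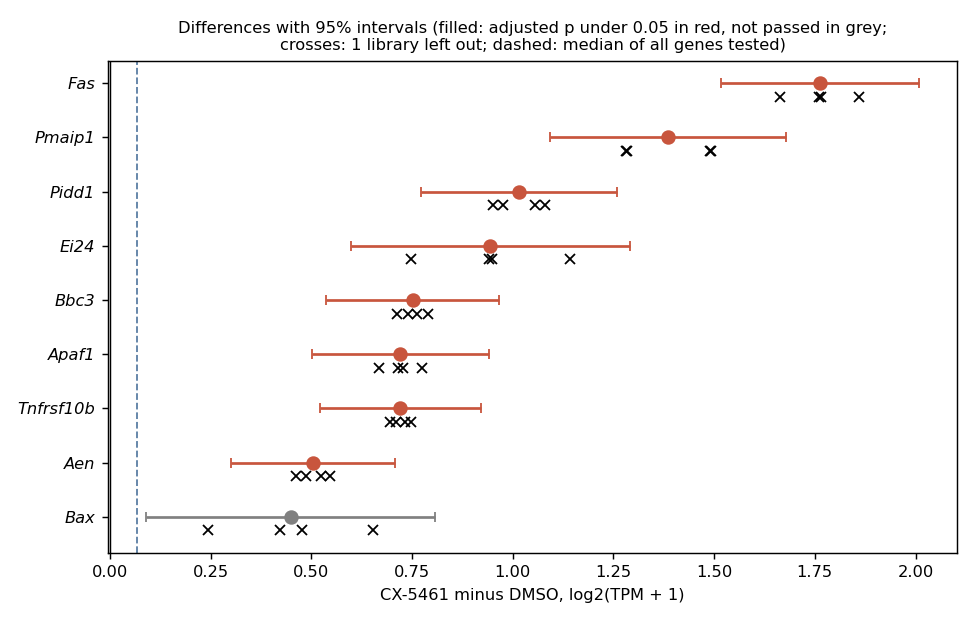
Differences of the 9 genes between CX-5461 and DMSO in log2(TPM + 1) (horizontal axis), with limma's 95% intervals; red circles passed at an adjusted p under 0.05, the grey circle did not, crosses are the values with 1 library left out, and the dashed line is the median of all genes tested. The values run from 0.45 for Bax to 1.76 for Fas, and the interval of Fas, 1.52 to 2.01, lies above those of the other genes except Pmaip1, whose interval is 1.09 to 1.68.

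In order of mean level with DMSO the genes ran Bax, Ei24, Aen, Tnfrsf10b, Pmaip1, Bbc3, Apaf1, Fas and Pidd1, at 251, 99.5, 97.0, 64.5, 41.1, 35.8, 34.9, 32.6 and 22.3 TPM. Ei24 and Aen overlapped across the DMSO libraries, as did Bbc3 with Apaf1 and Apaf1 with Fas, so these neighbours did not differ beyond their spread. In the CX-5461 libraries Bax stayed first and Pidd1 last, while Fas moved up beside Pmaip1, at 101 and 117 TPM, and above Tnfrsf10b, at 105 and 109 TPM. Together the 9 genes came to 731 and 626 TPM in the DMSO libraries and to 1155 and 1169 TPM in the CX-5461 libraries.

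Start-site windows were read from RefSeq (GRCm38.p6), each with 250 bases before and 50 after a start, to show what the promoters of these genes hold, Bax included, which did not pass. Windows were given for 7 of the 9 genes, 10 windows in all: Bbc3, Bax, Aen, Pidd1, Ei24, Apaf1 and Fas. The p53 response element consists of decamers, units of 10 bases in which 3 purines, a C, 2 bases that are A or T, a G and 3 pyrimidines follow each other, and the motif reads the same on both strands. An exact decamer was present in the windows of 3 of these 7 genes (Bax, Aen and Ei24), against 9.55% of 27025 genes with such windows. Adjacent pairs of decamers with intact cores and up to 3 mismatches in 20 bases were found for 2 of the 7 (Bbc3 and Aen), against 0.673% of genes. With a spacer of up to 13 bases allowed, which includes the adjacent pairs, a pair was found for 3 (also Bax), against 7.63%. The mismatch limit was chosen after the windows had been seen. The GC box GGGCGG, searched on both strands, was present for 7 of 7 genes and 38.2% of all. TATAAA, also on both strands, was present for 0 of 7 and 15.7% of all. The GC content of the members' windows was 57.3% to 78%, against a median of 52.7% over all windows. The 27025 genes were not limited to those with a mean of at least 1 TPM, which all members reached. A match describes letters only and is not a bound site.

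Bbc3, Bax and Fas are shown because they span the pairs of decamers and the range of differences. The stretches are the 250 bases before the start site, on the plus strand at chr7:16309333-16309582 for Bbc3, on the minus strand at chr7:45466899-45467148 for Bax and on the plus strand at chr19:34290409-34290658 for Fas. Capitals mark the pairs of decamers in Bbc3 and Bax, and the GC box in Fas, which held no pair and no exact decamer.
Bbc3: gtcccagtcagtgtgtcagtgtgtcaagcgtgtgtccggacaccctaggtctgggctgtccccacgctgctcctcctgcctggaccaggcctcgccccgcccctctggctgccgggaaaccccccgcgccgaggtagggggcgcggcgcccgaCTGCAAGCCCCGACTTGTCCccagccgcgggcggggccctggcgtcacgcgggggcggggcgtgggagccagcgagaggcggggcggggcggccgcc
Bax: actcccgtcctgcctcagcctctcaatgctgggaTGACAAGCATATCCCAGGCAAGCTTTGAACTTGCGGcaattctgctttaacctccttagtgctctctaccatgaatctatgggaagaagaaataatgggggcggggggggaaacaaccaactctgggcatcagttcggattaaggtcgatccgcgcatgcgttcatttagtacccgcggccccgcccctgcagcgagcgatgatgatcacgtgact
Fas: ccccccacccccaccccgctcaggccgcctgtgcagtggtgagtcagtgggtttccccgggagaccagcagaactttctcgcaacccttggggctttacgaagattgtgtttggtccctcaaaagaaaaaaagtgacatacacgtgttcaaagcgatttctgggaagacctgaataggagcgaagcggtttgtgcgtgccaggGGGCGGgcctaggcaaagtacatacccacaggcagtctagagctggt

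In Bbc3 the decamers lie side by side from position -97 relative to the start site, with 3 mismatches between them. In Bax the capitals join 2 overlapping pairs that share an exact decamer at position -201, each with 2 mismatches. The capitals include the spacers of these pairs, of 5 and 1 bases. A further pair, with 3 mismatches and a spacer of 11 bases, crosses the start site and is not marked. Aen and Ei24 are shown by the 30 bases around their matches, with the adjacent pair of Aen (chr7:78895937-78895956, plus strand, 3 mismatches, the first decamer exact) and the exact decamer of Ei24 (chr9:36797335-36797344, minus strand, position -10) in capitals.
Aen: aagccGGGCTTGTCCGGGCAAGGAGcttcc
Ei24: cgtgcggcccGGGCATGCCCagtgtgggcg
Fas, Pidd1 and Apaf1, with log2 differences of 1.76, 1.02 and 0.72, held neither a pair nor an exact decamer in their windows. Bbc3, at 0.75, held a pair only, Ei24, at 0.94, an exact decamer only, and Aen and Bax, at 0.50 and 0.45, held both. Sequence outside the windows was not searched, and a relation of matches to differences was not tested.

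The genes around the 9 were read from lists of the p53 network and of the apoptotic machinery. Trp53, which encodes p53, stood at 131 and 146 TPM with DMSO and at 121 and 130 TPM with CX-5461, with no change that passed (log2 difference -0.14, adjusted p = 0.334). The p53 protein was not measured. Of 20 p53 targets of arrest, feedback and repair, 14 rose and 0 fell, with a median difference of 0.57, next to 0.75 for the 9 apoptosis targets and 0.07 for all genes; at an unadjusted p under 0.05, 15 were higher and 1 lower. Cdkn1a, which encodes the cell cycle inhibitor p21, was at 718 and 683 TPM with DMSO and at 1637 and 1765 TPM with CX-5461. Mdm2 was at 214 and 215 TPM and at 455 and 507 TPM, and Trp53inp1, a p53-induced nuclear protein, at 84.7 and 74.8 TPM and at 203 and 237 TPM. In these 3 genes both CX-5461 libraries lay far above both DMSO libraries, and their log2 differences of 1.28, 1.16 and 1.45 passed whichever library was left out.

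A further list held 14 p53 targets tied to cell death other than the 9. Of 13 tested, 9 rose and 0 fell, with a median difference of 0.66, and at an unadjusted p under 0.05, 12 were higher and 0 lower. Zmat3, Trp53inp1, Eda2r and Phlda3, which rose, also belong to the list of arrest, feedback and repair, so the lists are not separate. Perp, a membrane protein of desmosomes and of p53-dependent death, was at 239 and 222 TPM with DMSO and at 618 and 774 TPM with CX-5461 (log2 difference 1.58, adjusted p = 0.00155). Dapk1, a death-associated kinase, was at 33.7 and 33.1 TPM and at 61.4 and 60.3 TPM (0.85, adjusted p = 0.00279). Both passed with any 1 library left out. Among cofactors that steer p53 to or from death genes, Ppp1r13l, which encodes the inhibitory iASPP, rose from 44.3 and 39.3 TPM to 79.9 and 85.0 TPM (0.96, adjusted p = 0.00307, and 0.0518 without CX-5461 replicate 3). Ppp1r13b, which encodes the stimulating ASPP1, fell from 17.7 and 20.4 TPM to 10.5 and 11.7 TPM (-0.72, adjusted p = 0.0156). The call of Ppp1r13b ended without DMSO replicate 3 and without either CX-5461 library, with an adjusted p of up to 0.113.

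In a joined set of apoptosis genes beside the 9, the shares of messages that changed were near those of all genes. Among 35 genes of the apoptosome, death receptor signalling, the PIDDosome and the executioner step, the 9 left aside, 32 were tested, 3 rose and 2 fell, next to 11.6% and 8.21% of all genes, and the median difference was 0.04. At an unadjusted p under 0.05, 6 were higher and 3 lower, next to 3123 and 2113 of all 14621 genes tested. The set also holds other receptors and ligands, and the 3 genes that rose were receptors: Tnfrsf21, Tnfrsf1a and Tnfrsf23. Of 6 caspases tested, 0 rose and 0 fell by limma, and 0 reached an unadjusted p under 0.05.

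**Figure D3:**
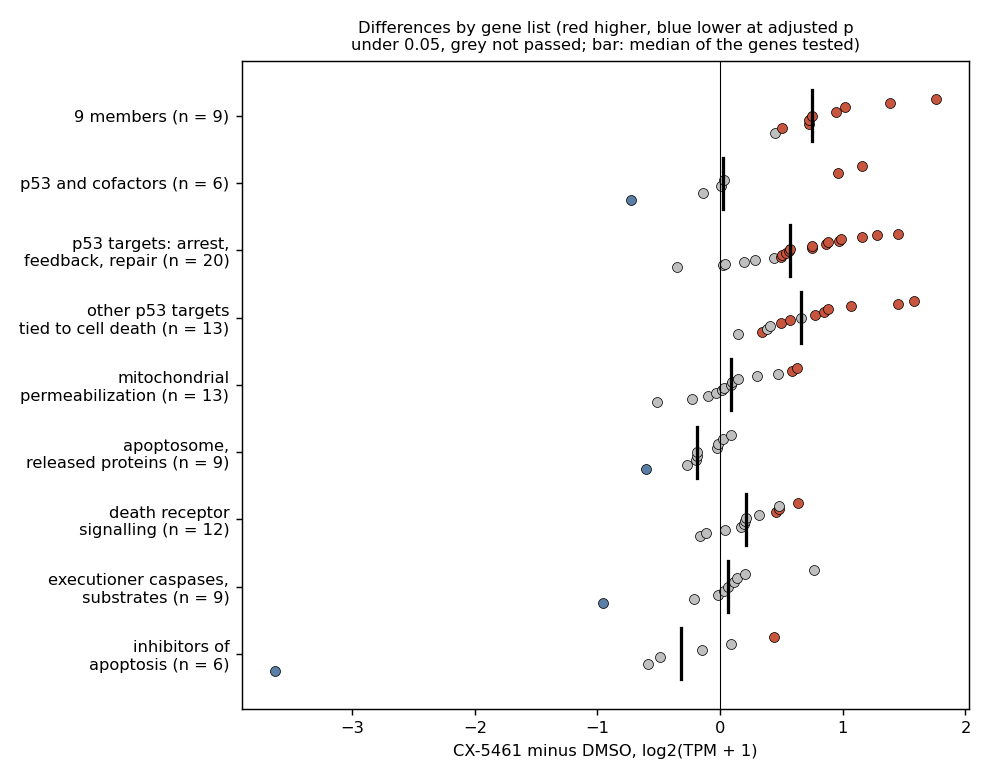
Differences on the log2(TPM + 1) scale (horizontal axis) of the genes tested in each list, 1 point per gene; red points rose and blue points fell at an adjusted p under 0.05, grey points did not pass, and black bars are list medians. The medians are 0.75 for the 9 genes, 0.57 and 0.66 for the other lists of p53 targets and between -0.32 and 0.21 for the rest. Some genes stand in several lists.

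The direct partners of each member can be set beside it. Casp9, which Apaf1 activates, was at 12.9 and 11.4 TPM with DMSO and 12.3 and 8.92 TPM with CX-5461, and Cycs, the cytochrome c that Apaf1 binds, at 69.0 and 75.7 TPM and at 60.4 and 66.3 TPM. Neither passed (adjusted p = 0.485 and 0.224), and the Casp9 values of the groups overlapped. Fadd, the adaptor of Fas and Tnfrsf10b, was at 11.9 and 12.4 TPM and at 11.7 and 13.4 TPM, and Casp8 at 38.2 and 35.2 TPM and at 33.5 and 34.1 TPM (adjusted p = 0.848 and 0.42). For the PIDDosome, Cradd was at 1.97 and 1.42 TPM and at 1.31 and 1.10 TPM, and Casp2 at 7.29 and 7.99 TPM and at 5.36 and 6.25 TPM. Both partners of Pidd1 lay lower in the CX-5461 libraries without passing (adjusted p = 0.456 and 0.163), as did Cycs and Casp8. Lower values without overlap held for 26.3% of all genes tested.

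Genes of the list that did pass were receptors other than Fas and Tnfrsf10b and proteins released or cut during death. Tnfrsf21, known as death receptor 6, rose from 34.8 and 37.9 TPM to 55.9 and 58.4 TPM (0.64, adjusted p = 0.0085). Tnfrsf1a, a receptor of tumour necrosis factor, rose from 192 and 187 TPM to 256 and 264 TPM (0.45, adjusted p = 0.0142). Tnfrsf23, in the mouse a TRAIL receptor without a death domain, rose from 43.2 and 48.5 TPM to 65.3 and 63.3 TPM (0.48, adjusted p = 0.0227). Aifm1, a mitochondrial flavoprotein released in cell death, fell from 52.6 and 47.2 TPM to 33.0 and 31.9 TPM (-0.60, adjusted p = 0.0116). Parp1, a DNA repair enzyme that caspases cleave, fell from 85.1 and 75.0 TPM to 41.9 and 39.6 TPM (-0.96, adjusted p = 0.00322). The first 4 of these calls ended without CX-5461 replicate 2 and without CX-5461 replicate 3 (adjusted p of up to 0.176), and that of Parp1 without CX-5461 replicate 3 (0.0531). Tnfrsf23 also did not pass under quantile normalization or with limma's plain variance prior, without trend and robust (adjusted p of up to 0.0577).

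At the mitochondrion, 2 of 13 tested partners of the BH3-only proteins and Bax rose and 0 fell. Over all genes tested, 11.6% rose and 8.21% fell. The median difference of these partners was 0.09, and at an unadjusted p under 0.05, 4 were higher and 0 lower. Bcl2l1, which encodes the survival protein Bcl-xL, rose from 83.5 and 75.6 TPM to 129 and 118 TPM (0.63, adjusted p = 0.0101, and up to 0.108 without either CX-5461 library). Bcl2l11, the BH3-only gene of Bim, rose from 5.80 and 5.93 TPM to 9.22 and 9.34 TPM (0.58, adjusted p = 0.032). That call ended whichever library was left out, without the filter and with the replicate block (adjusted p of up to 0.187). Bak1, the other pore-forming effector, was at 96.0 and 133 TPM with DMSO and at 97.0 and 95.4 TPM with CX-5461 (adjusted p = 0.358). The survival genes Bcl2 and Mcl1 did not pass, at 5.81 and 5.21 TPM against 5.17 and 4.99 TPM (adjusted p = 0.68) and at 241 and 209 TPM against 266 and 287 TPM (adjusted p = 0.0942). Mcl1 passed without DMSO replicate 2, at a difference of 0.40, as did Bak1 at -0.46.

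Among 6 tested inhibitors of apoptosis proteins, 1 rose and 1 fell, next to 11.6% and 8.21% of all genes tested. Birc5, which encodes survivin, a protein that also serves in cell division, fell from 28.1 and 28.2 TPM to 1.20 and 1.52 TPM (log2 difference -3.63, adjusted p = 0.000263), and passed whichever library was left out. Birc2 rose from 15.5 and 14.7 TPM to 21.3 and 20.1 TPM (0.44, adjusted p = 0.0381), a call that ended with any 1 library left out, without the filter, with limma's plain variance prior and with the replicate block (adjusted p of up to 0.217). Xiap, an inhibitor of caspases, was at 25.7 and 24.4 TPM with DMSO and 26.0 and 27.6 TPM with CX-5461 (adjusted p = 0.542).

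Ratios of TPM within each library, which do not depend on how libraries are scaled to each other, set members against the proteins that restrain them. They are given as values with no test, since the exact two-sided permutation test for a single value cannot give a p below 0.333 with 2 libraries per group. The Bax to Bcl2 ratio was 49.3 and 41.3 with DMSO and 66.9 and 66.8 with CX-5461. Against Bcl2l1, the more abundant survival message, the Bax ratio was 3.43 and 2.85 with DMSO and 2.68 and 2.82 with CX-5461. The direction for Bax therefore differed with the survival gene it was set against, and the gap in the second ratio was small next to the spread of the DMSO libraries. The Bbc3 to Bcl2l1 ratio was 0.432 and 0.469 with DMSO and 0.458 and 0.530 with CX-5461, so the groups overlapped although both genes rose.

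The other ratios lay apart between the groups. Pmaip1 to Mcl1 was 0.183 and 0.182 with DMSO and 0.379 and 0.408 with CX-5461. Fas to Cflar, a gene whose product blocks Casp8 at the receptor, was 1.20 and 1.59 with DMSO and 3.71 and 3.94 with CX-5461, and Cflar itself did not pass (difference 0.31, adjusted p = 0.0974). Apaf1 to Xiap was 1.41 and 1.37 with DMSO and 2.23 and 2.12 with CX-5461. These are ratios of messages, and protein levels were not measured.

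**Figure D4:**
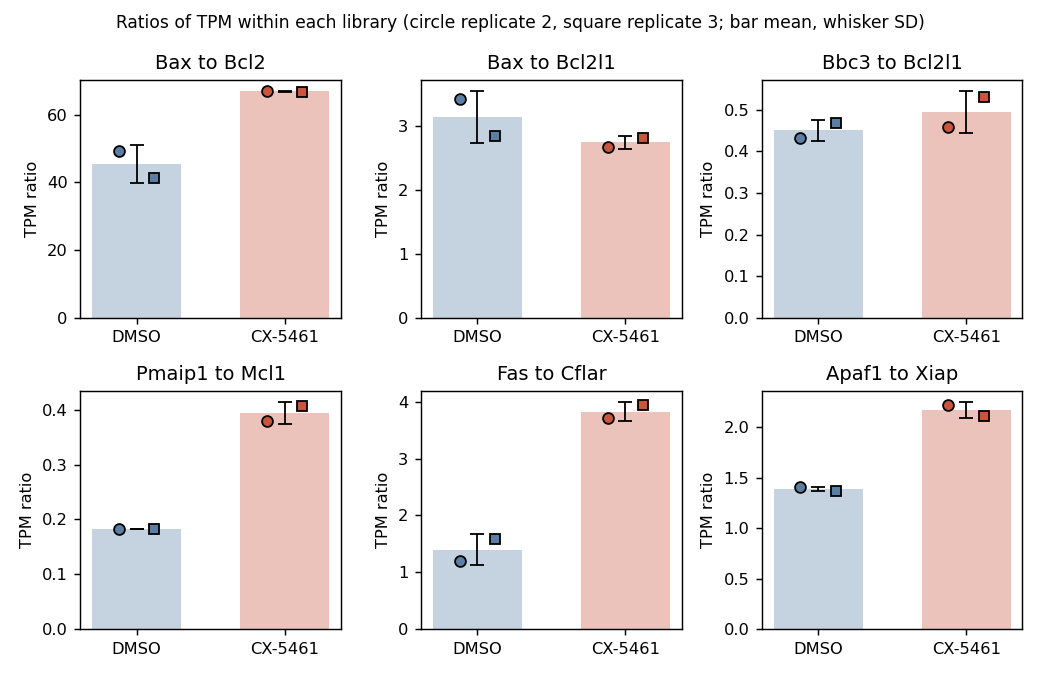
Ratios of TPM (vertical axes, starting at 0 and scaled per panel) within each library; circles are replicate 2, squares replicate 3, bars the mean and whiskers the SD of n = 2 libraries. Pmaip1 to Mcl1, Fas to Cflar and Apaf1 to Xiap lie higher in both CX-5461 libraries, whereas Bbc3 to Bcl2l1 overlaps between 0.432 and 0.530.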

How the data were processed

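The authors deposited a table of TPM values of 4 libraries. Per the labels' protocols, BMKCloud was used to clean the reads, and build mm10 stands in the submitters' processing notes. Aligner, counter and annotation: not given in the sources used here. TPM are relative to all other genes in a library.

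The log2(TPM + 1) values of the genes whose mean reached 1 TPM entered limma 3.58.1 under R 4.3.3 (trend, robust, no covariate), two-sided, with Benjamini-Hochberg adjustment over all 14621 genes, and passed at an adjusted p under 0.05. Residual degrees of freedom were 2 and prior ones 3.75. The procedure was tested on simulated data. GENCODE M21 (mm10) gave positions and exon lengths. Read numbers were recovered as TPM times exon length divided by a constant per library. Of values under 10000 reads, 69.8% to 70.1% per library lay within 0.01 of a whole number, so count tests were not used. The recovered read numbers bear on counting error only. Python 3.11.15 (numpy 2.4.6, pandas 2.3.3, matplotlib 3.10.9) was used.

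The members and lists were chosen with earlier results of these data known. The rule for named genes took the 9 members, Trp53, Cdkn1a, Mdm2, direct partners and up to 3 genes per list with the smallest adjusted p that passed; of the marker lists only some are named. One gene that the rule takes is not reported here.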

Additional observations from a re-analysis of the deposited data

How the results depend on the processing

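Limits: 2 libraries per group carry the results, and TPM hide depth. Calls lost with a CX-5461 library left out rest on the spread of the DMSO pair and on limma's variance prior over all genes. The lone library is then assumed to vary alike. All 9 members kept a higher value with CX-5461 under each of 9 settings: the replicate block, limma with its plain variance prior, pseudocounts of 0.1 and 5, quantile normalization, scaling by median of ratios, TPM recomputed after removing mitochondrial messages and the 20 most abundant genes, and a filter set to 5 TPM or dropped. The 8 that passed did so under all of these. The replicate block made Bax pass (0.45, adjusted p = 0.0452), so 9 passed, and ended no call of a member. Library numbers gave no pairing (r = 0.03 between deviations of same-numbered libraries, over genes), and the block called 1589 higher and 1100 lower genes in all, against 1694 and 1201. With 1 library left out, differences ranged over 0.24 to 0.65 for Bax, 0.71 to 0.79 for Bbc3, 0.70 to 0.75 for Tnfrsf10b, 0.46 to 0.55 for Aen, 0.67 to 0.77 for Apaf1 and 0.75 to 1.14 for Ei24, and 3 to 9 members passed. Over all genes, 237 to 2047 were then higher and 364 to 891 lower, and of the genes in the other lists 6 to 26 were higher (26 with all libraries) and 1 to 6 lower (4 with all). The excess of higher over lower genes was absent or turned under other scalings, with 1652 higher and 1655 lower by median of ratios, 1638 and 1646 by quantile normalization and 1616 and 1683 with recomputed TPM. Higher genes numbered 1051 without the filter and 1128 with the plain variance prior. At an adjusted p under 0.01, 548 were higher and 518 lower, with 14 and 2 in the other lists and 7 members, and under 0.1, 2623 were higher. In the other lists 7 were lower under median-of-ratios scaling and 7 with recomputed TPM. Without DMSO replicate 2 the median of all genes was 0.11. Apart from settings whose construction gives it, the cause was not tested.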
